A study of Oryza sativa with 239 samples.

Results

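A set of 100 genes with a lower level in drought in at least 36 of 39 rice cultivars is described here. It was chosen from the drought values themselves. Read counts of leaf libraries were turned into CPM, the reads of a gene per 1000000 assigned reads, with TMM, a method that sets libraries on a common scale from the bulk of their genes. Libraries under 1000000 assigned reads and the cultivar WRC09 were left out. For each of the other 39 cultivars, the mean of log2(CPM + 1) in control leaves was subtracted from that in drought leaves. Among the 14568 genes with a mean of at least 5 CPM, the 100 with the most negative ratio of mean change to its SD between cultivars were taken. The table held 55986 gene models, of which 28266 passed a filter on low counts, the 100 genes among them.

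When the soil dries, rice leaves close their stomata, accumulate abscisic acid and slow their growth. Transcripts for growth, photosynthesis and the making of proteins commonly fall in leaves under such conditions, while those for protective proteins rise. The title of the study names its purpose as finding marker genes from which the level of drought that a rice plant perceives can be predicted. The identifiers are gene models of the form LOC_Os, and the reference at hand paired 0 of them with a symbol or a function. The roles of the 100 genes are therefore not given, lists of pathway genes and markers of leaf cell types were not tested, and a gene is named only by its identifier and the chromosome read from it.

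The libraries came from polyA RNA of the youngest fully expanded leaf and the next older leaf of *Oryza sativa*, on day 5 of the treatment. Of the 40 cultivars and lines, 36 carried numbers of the WRC series (the World Rice Core collection of diverse landraces and varieties), beside which stood KP, Dro1-NIL, IR64 and Koshihikari. All plants were raised in a growth chamber, each in its own pot of calcined clay with automatic irrigation. Control plants stayed irrigated, and the pots of drought plants were raised above the water hose so that they drained. The sample labels call this moderate drought, whereas the protocol text describes a severe treatment with later rewatering, so the severity is not settled. Replicates numbered 3 in each cultivar and treatment, with 2 for Dro1-NIL in drought. Seedlings were grown 1 to a pot, but the labels do not say that each library was a separate plant.

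The rule used 229 of the 239 libraries. Control libraries held 5990482 to 37368724 assigned reads, with a median of 14836724. The drought libraries of at least 1000000 reads, WRC09 included, held 2607314 to 59463969, with a median of 17390650. A member had a median of 1025 reads in a library. It had under 10 reads in 36 of the pairings of a member and a library, the lowest being 1 read. The names of control libraries begin with C and those of drought libraries with D, each numbered on its own, so handling by series and drought cannot be told apart. The cultivar of each library was checked over the 500 genes that differed most between cultivars in control leaves. Control and drought libraries labelled WRC09 had a median Pearson r of 0.46 with each other, against 0.95 in the median of the other cultivars and 0.81 in the lowest, so their plants went against their common label. Control replicate 3 and drought replicate 2 of WRC16 were nearer to WRC15 (r = 0.72 and 0.74) than to their own group (0.68 and 0.66). Control replicate 3 of WRC35 had an r of 0.79 with its group and 0.73 with WRC36. The latter 3 libraries were used by the rule, and results are also given without them. The samples are whole leaves, in which fewer cells of a type and less RNA per cell cannot be told apart.

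Most of the 100 genes fell by a modest amount. Over the 39 cultivars their mean change on the log2(CPM + 1) scale ran from -1.94 to -0.14 with a median of -0.34, which is 79.1% of the control level. In 7 genes the mean change was -1 or below, so that the level fell by at least a factor of 2. It lay between -1 and -0.5 in 16 genes, between -0.5 and -0.25 in 49 and above -0.25 in 28. The SD of the change between cultivars ran from 0.08 to 0.97 with a median of 0.18. Across the 100 genes the size and the SD followed each other (Pearson r = -0.99 between the signed change and its SD, across genes and not replicates), as a list cut on their ratio must show. All of these values were used by the rule and are a description.

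**Figure D1:**
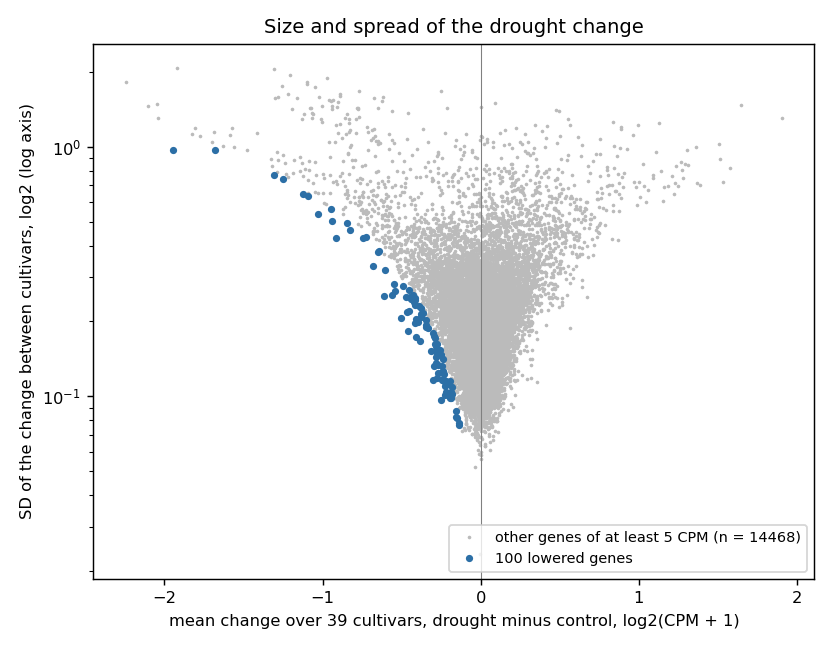
Mean drought change over 39 cultivars on the log2(CPM + 1) scale (horizontal axis) and the SD of that change between cultivars (vertical log axis) for 14568 genes of at least 5 CPM. The 100 lowered genes (blue) form the left edge of the cloud, from a change of -0.14 with little spread to -1.94 with an SD of 0.97.

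Of the 100 genes, 32 were lower in all 39 cultivars, 41 in 38, 25 in 37 and 2 in 36. Among all 14568 genes of this abundance, 42 were lower in all 39 cultivars, and the median gene was lower in 19. The ratio of mean to SD ran from -2.61 to -1.67. The 5 genes just inside the limit had ratios of -1.68 to -1.67, and the 5 just outside had ratios of -1.67 to -1.66, so nothing separated the 100 from the genes that followed. In the edgeR fit over the 39 cultivars, all 100 passed at an adjusted p under 0.05 in the lower direction, where 22.2% of the tested genes and 28.8% of those of at least 5 CPM did. With a fold of at least 2 as well, 8 of the 100 were called lower, against 0.863% of the tested genes (244 genes). In the higher direction 0 of the 100 were called, by the adjusted p alone (23.7% of the tested genes) or with the fold (0.57%, 161 genes). The rule used this contrast, so nothing is read from these counts.

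The 100 lowered genes were more abundant than most leaf transcripts. Their mean level ran from 10.4 to 799 CPM with a median of 74.1, whereas the median gene of at least 5 CPM stood at 24.7. Of the 100, 42 had a mean of at least 100 CPM, against 12.01% of the genes of at least 5 CPM, and 13 had a mean under 20 CPM, against 42.6%. Every one of the 100 was read in each library of at least 1000000 reads, as were 91.97% of the genes of at least 5 CPM. The part of read depth in this difference was not tested. The 100 genes that the same rule gives in the other direction, those raised by drought, had a median of 24.5 CPM and a larger median change of 0.47, with a median SD of 0.25. CPM values are not divided by transcript length, so these levels also carry differences in length.

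LOC_Os08g12680, on chromosome 8, was the first gene of the list, with a small and even change. Its level in the control libraries ran from 40.9 to 76.3 CPM with a median of 56.9, and in the drought libraries from 33.8 to 70.3 CPM with a median of 47.8. Control and drought libraries thus overlapped over most of their range when cultivars were put together. Within cultivars the gene was lower in all 39, and in 14 of them every drought library lay below every control library. The mean was 57.5 CPM in control (SD 5.28 between cultivars, n = 39) and 48.4 CPM in drought (SD 4.30). Its change was -0.25 on the log2 scale (SD 0.10, n = 39), from -0.45 in Dro1-NIL and -0.43 in Koshihikari to -0.07 in WRC15 and -0.05 in WRC55. In Dro1-NIL the control libraries stood at 64.5, 67.9 and 72.4 CPM and the drought libraries at 41.4 and 60.0 CPM. In WRC55 the values were 56.9, 45.5 and 60.1 CPM in control and 59.8, 43.9 and 53.4 CPM in drought, which overlapped.

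LOC_Os09g12290, on chromosome 9, had the most negative mean change of the 100 genes. Its control libraries ran from 24.3 CPM in WRC100 to 1568 CPM in WRC24, with a median of 357. Its drought libraries ran from 2.17 CPM in WRC100 to 802 CPM in WRC44, with a median of 88.2. The mean was 382 CPM in control (SD 225 between cultivars, n = 39) and 114.8 CPM in drought (SD 88.5). Control and drought libraries overlapped widely when cultivars were put together, but 26 of 39 cultivars had every drought library below every control library. This count too is a description of libraries that the rule used. The mean change was -1.94 (SD 0.97, n = 39), with 38 cultivars lower. WRC24 changed most, by -4.51, from 1041, 1012 and 1568 CPM in control to 148, 13.6 and 63.6 CPM in drought. WRC27 followed at -3.91. In WRC51, the cultivar in which it was not lower, the control values of 127, 206 and 61.4 CPM and the drought values of 128, 164 and 105.3 CPM overlapped, with a change of 0.15. In WRC44 the change was -0.04, and its drought values of 243, 88.9 and 802 CPM lay on both sides of its control values of 192, 256 and 385 CPM.

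**Figure D2:**
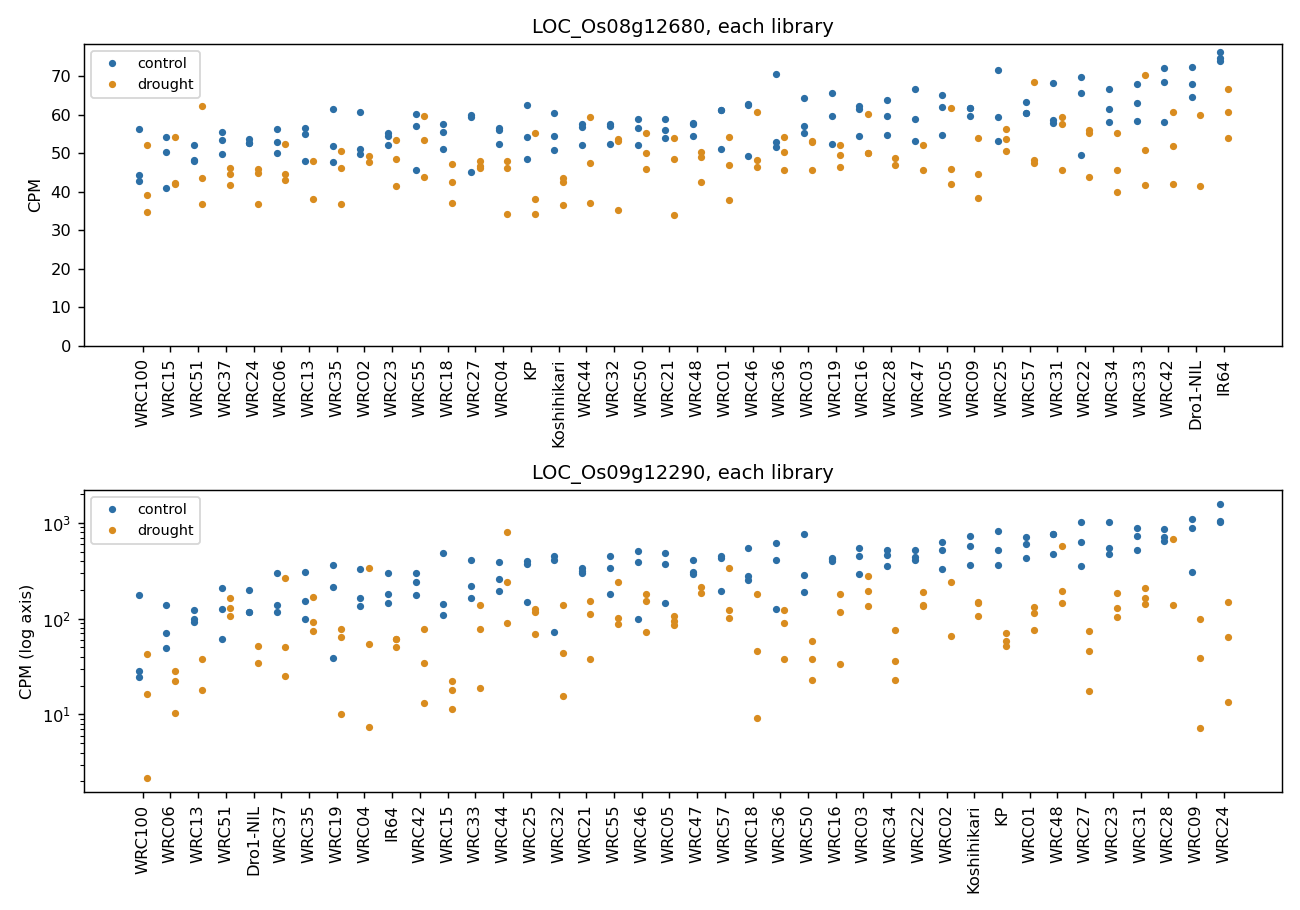
CPM of LOC_Os08g12680 (top, linear axis) and LOC_Os09g12290 (bottom, log axis) in each library of at least 1000000 reads, with cultivars on the horizontal axis ordered by mean control level (blue control, orange drought). The first gene changes little and evenly, with all libraries between 33.8 and 76.3 CPM, and the second spans 2.17 to 1568 CPM.

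The median change of the 100 genes varied from cultivar to cultivar, and these values were used by the rule. Between replicates, the mean of log2(CPM + 1) over the 100 genes had a median SD of 0.12 in control and 0.15 in drought. Whether the order of the cultivars goes beyond that spread was not tested. The median change of the 100 genes was -0.33 in the median cultivar (SD 0.10 between cultivars, n = 39), and in every cultivar it lay below 0. In 10 cultivars it was -0.4 or below: WRC24 at -0.56, KP at -0.48, Dro1-NIL at -0.47, WRC42 at -0.45, WRC18 at -0.44, Koshihikari and WRC15 at -0.42, WRC32 and WRC34 at -0.41, and WRC27 at -0.40. In 15 it lay between -0.4 and -0.3 (WRC21, WRC33, WRC01, WRC13, WRC28, WRC50, WRC05, WRC47, WRC36, WRC19, WRC100, IR64, WRC31, WRC37 and WRC22). In 11 it lay between -0.3 and -0.2 (WRC03, WRC04, WRC35, WRC48, WRC25, WRC16, WRC23, WRC46, WRC55, WRC57 and WRC06). The weakest were WRC02 at -0.18, WRC44 at -0.09 and WRC51 at -0.07. All 100 genes were lower in 22 cultivars, and at least 95 were lower in 36. The fewest were 72 in WRC44 and 73 in WRC51. Over the genes of at least 5 CPM, the share lower in a cultivar ran from 44.5 to 55.98%. Without the 3 libraries that stood near another cultivar, the median change was -0.24 in WRC16, in place of -0.25, and -0.20 in WRC35, in place of -0.29. The list chosen again without them shared 93 genes with the 100.

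**Figure D3:**
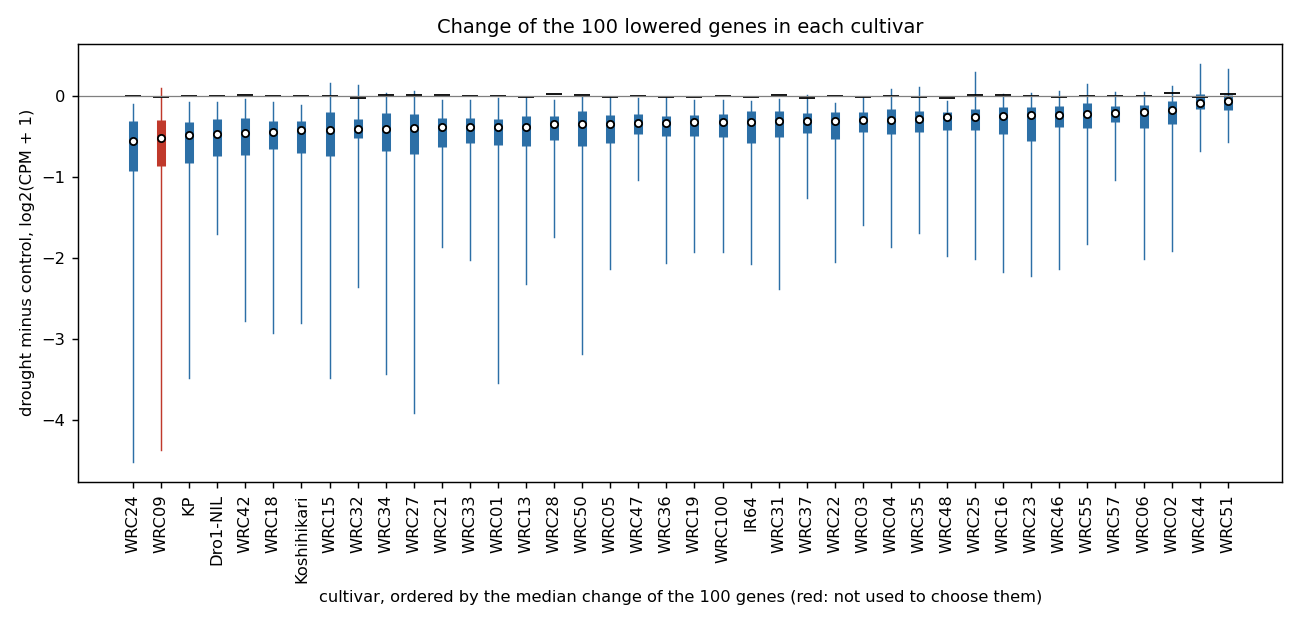
Drought change of the 100 genes on the log2(CPM + 1) scale in each of 40 cultivars, ordered by the median (white points); thick bars span the middle of the genes (25th to 75th percentile), thin lines the lowest to the highest gene, and black dashes the median of all genes of at least 5 CPM. Medians run from -0.56 in WRC24 to -0.07 in WRC51, and WRC09 (red), which was not used to choose the genes, stands at -0.52.

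The level of the whole set in a library was taken as the mean of log2(CPM + 1) over the 100 genes. In 32 of the 39 cultivars every drought library lay below every control library, and the exceptions were WRC33, WRC46, WRC55, WRC57, WRC02, WRC44 and WRC51. In 0 cultivars did every drought library lie above every control library. The rule chose the genes from these same libraries, so the direction was nearly fixed by the choice and these counts are a description. The median SD between replicates was 0.12 in control and 0.15 in drought. In WRC44 the drought libraries stood 0.15 above, 0.56 below and 0.15 above the mean of the controls (replicates 1, 2 and 3, a change of -0.09), and the change turned to 0.15 without drought replicate 2. In WRC57 drought replicate 1 stood 0.19 above the control mean, whereas replicates 2 and 3 stood 0.54 and 0.42 below it. In WRC51 drought replicate 1 was 0.11 above and the others 0.16 and 0.20 below. In every cultivar but WRC44, WRC57 and WRC51 included, the change kept its direction whichever library was left out.

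Single cultivars reached the threshold of a test for few of the 100 genes. In the edgeR model with 1 mean per cultivar and treatment, 46 of the 100 passed as lower in WRC24, where 4.64% of the tested genes did. KP had 28 (1.80% of tested genes), WRC15 had 25 (1.72%) and WRC01 had 17 (0.70%). In 26 of the 39 cultivars 0 of the 100 passed in edgeR, where 0 to 2.01% of the tested genes did, although at least 72 of the 100 were lower in each of them. These libraries chose the genes, so the counts are a description. The test of a difference in response among the 39 cultivars passed at an adjusted p under 0.05 for 2 of the 100 genes, 2.11% of the tested genes and 1.56% of those of at least 5 CPM. An unadjusted p under 0.05 was found for 13 of the 100, against 12.2% of the tested genes and 11.1% of those of at least 5 CPM. The rule selects for a small SD between cultivars relative to the change, which bears on that count.

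To read the genes in plants that had no part in their choice, the 100 genes were chosen again without each cultivar in turn and then read in it. These lists shared 80 to 98 genes with the full list. In the cultivar left out, a median of 98 of the 100 genes were lower, and at least 90 were lower in 33 of the 39 cultivars. Over all genes of at least 5 CPM the share lower in the same cultivar was 50.2% in the median. The fewest were 58 in WRC44, where 53.5% of the genes of at least 5 CPM were lower and the median change was -0.03, against -0.02 over those genes, so a lowering of the list was not shown in that cultivar. There were 61 in WRC51, where 44.5% were. WRC02 followed with 84 against 44.6%. The median change of the genes in the cultivar left out was -0.32 in the median and ran from -0.73 to -0.03, whereas that of all genes of at least 5 CPM stayed between -0.03 and 0.03. The lists overlap each other and all cultivars share the 2 series of library names, so the 39 readings are not independent of each other.

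**Figure D4:**
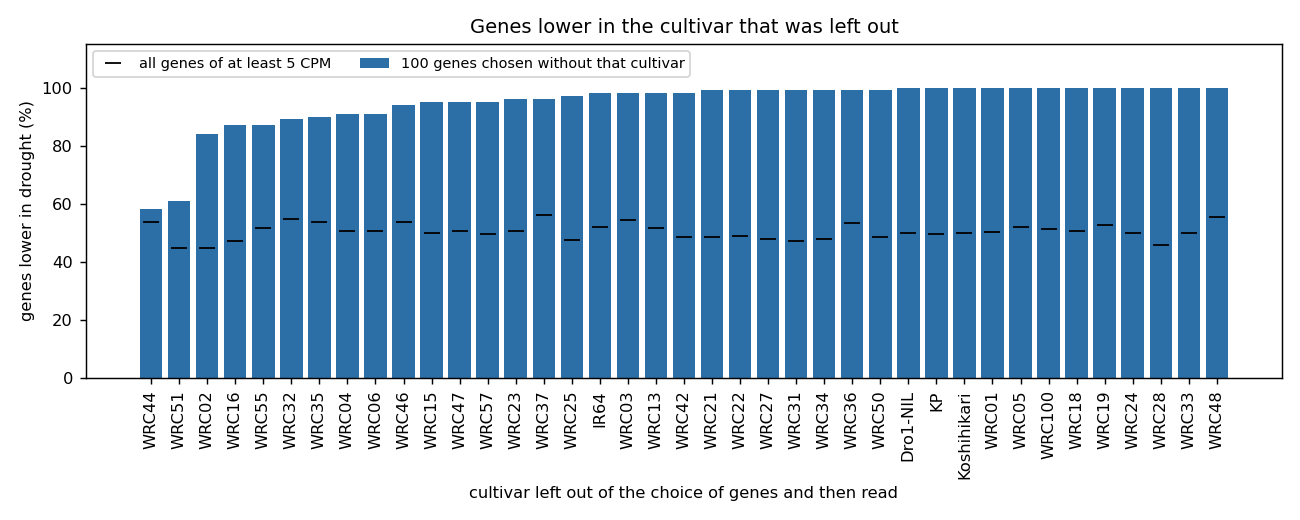
Percentage of genes lower in drought in each cultivar, for 100 genes chosen without that cultivar (bars) and for all genes of at least 5 CPM (black dashes). The bars run from 58 in WRC44 and 61 in WRC51 to 100, and the dashes lie between 44.5 and 55.98%.

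WRC09 was not used to choose the genes, and most of them were lower in its drought leaves too. Of the 100 genes, 97 had a log2 fold change below 0, where 51.7% of the genes of at least 5 CPM and 46.1% of all tested genes did. In edgeR, 50 of the 100 fell at an adjusted p under 0.05, where 9.41% of the tested genes and 11% of those of at least 5 CPM fell. Of the 100, 0 rose, where 8.41% of the tested genes and 9.63% of those of at least 5 CPM rose. At an unadjusted p under 0.05, 67 were lower (14.9% of the tested genes). None was higher at an unadjusted p under 0.05 (0 of 100, against 13.6%). In DESeq2 on the WRC09 libraries alone 0 of 100 were higher, for which the share of all tested genes is not given here. With a fold of at least 2 as well, 19 were called lower, against 5.97% of the tested genes and 4.67% of those of at least 5 CPM, and 0 higher, against 5.5%. The median log2 fold change of the 100 was -0.51, against -0.02 over the genes of at least 5 CPM. For 61 of the 100 every drought library lay below every control library (19.5% of the genes of at least 5 CPM), and for 0 did every drought library lie above (18.3%). The summed level of the 100 genes was 15016 to 17034 CPM in the 3 control libraries and 9589 to 12664 CPM in the 3 drought libraries, which did not overlap. Because the control and drought plants labelled WRC09 differed over the genes that mark cultivars, a difference between these plants cannot be told apart from drought. The count of 50 rested in part on replicate 2: without its control and drought libraries, 22 of the 100 and 4.17% of the tested genes passed.

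The genes that changed most in the other cultivars also changed most in WRC09. Of the 23 genes with a mean change of -0.5 or below over the 39 cultivars, 17 fell in WRC09 with the test above, and so did all 7 with a mean change of -1 or below. Of the 49 genes between -0.5 and -0.25, 26 passed, and of the 28 above -0.25, 7 passed. Over all genes of at least 5 CPM, whatever their mean change, 11% passed as lower. The share among other genes of a like mean change is not given here, so the bands are a description. Across the 100 genes, Spearman's rho between the change in WRC09 and the mean change in the others was 0.75 (genes are not independent replicates, and all share the same 6 libraries). LOC_Os09g12290 stood at 875, 1089 and 302 CPM in the WRC09 control libraries and at 99.4, 7.26 and 39.02 CPM in drought. The groups did not overlap, and the log2 fold change was -3.95 (edgeR, adjusted p = 8.9e-05). LOC_Os08g12680 stood at 61.8, 61.8 and 59.7 CPM in control and 54.1, 38.4 and 44.6 CPM in drought, also without overlap. Its log2 fold change was -0.42 with an edgeR adjusted p of 0.048, which lay between 0.055 and 0.45 under the alternatives, so this call was not kept under any of them.

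LOC_Os11g16310, on chromosome 11 and chosen after its values were seen, had the most negative edgeR log2 fold change in WRC09. On the log2(CPM + 1) scale its change of -3.52 was smaller in size than that of LOC_Os09g12290, at -4.36, and its drought libraries held 27, 19 and 2 reads. It stood at 19.8, 41.5 and 11.2 CPM in control and 1.302, 1.05 and 0.51 CPM in drought, with a log2 fold change of -4.46 (edgeR, adjusted p = 8.5e-07). The 3 of the 100 genes that were not below 0 in WRC09, also named after their values were seen, were LOC_Os07g29620 on chromosome 7, LOC_Os02g57650 on chromosome 2 and LOC_Os02g58554 on chromosome 2. Their log2 fold changes were 0.01, 0.02 and 0.11 with adjusted p of at least 0.75 in edgeR. In the other 39 cultivars their mean changes were -0.20, -0.14 and -0.24. In LOC_Os02g58554 the WRC09 values were 141, 122 and 145 CPM in control and 171, 126 and 144 CPM in drought, which overlapped.

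**Figure D5:**
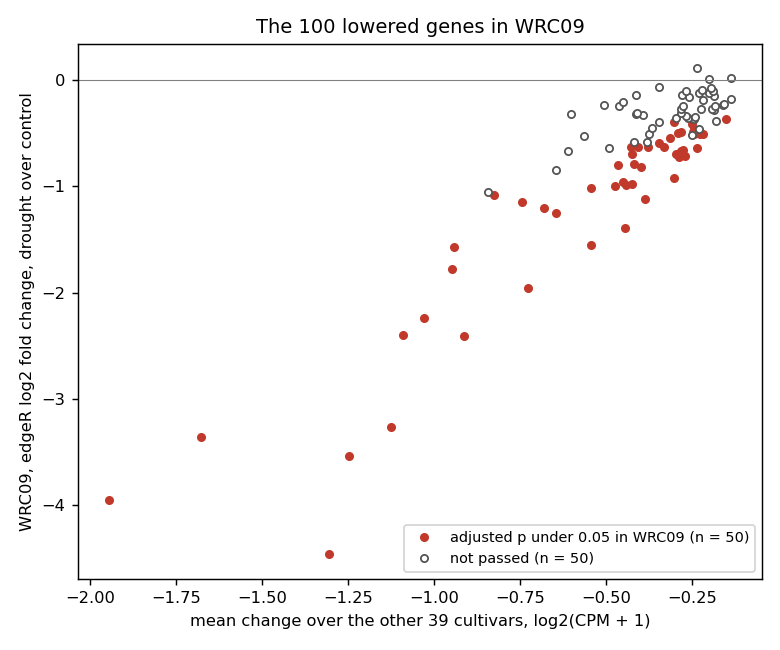
EdgeR log2 fold change of the 100 genes in WRC09, drought over control (vertical axis), against their mean change over the other 39 cultivars on the log2(CPM + 1) scale (horizontal axis). Filled red points are the 50 genes with an adjusted p under 0.05 in WRC09, open points the others; 97 of the 100 lie below 0.

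The drought libraries under 1000000 reads were also left out of the choice, although the controls of their cultivars were not. In WRC02 replicate 2 (236927 reads) the 100 genes held 11428 CPM in sum (without TMM), with a 95% Poisson interval of 11002 to 11867 that covers counting error only. The 3 controls of WRC02 held 12543 to 14680 and its other drought libraries 11117 to 11566, so this library stood with the drought libraries. WRC28 replicate 3 (386011 reads) held 12270 (11923 to 12625), which was below its controls at 12810 to 14440 and above its other drought libraries at 10027 to 11024. WRC13 replicate 1 (248195 reads) held 15104 (14625 to 15596), above its controls at 12842 to 13707, whereas its other drought libraries held 10328 and 11642. Of the 100 genes, 81 were below the control mean in the WRC02 library, 57 in that of WRC28 and 44 in that of WRC13, against 58.7%, 44.7% and 47.3% of the genes of at least 5 CPM. The 3 shallow libraries were thus not of one kind. WRC47 replicate 3, with 362 reads of which 4 fell on the 100 genes, was too shallow to read.

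The change was smaller among libraries numbered 1 than among the others. With 1 library per cultivar and treatment, the median change of the 100 genes was -0.25 in replicates numbered 1 (37 cultivars), -0.38 in those numbered 2 (38 cultivars) and -0.36 in those numbered 3 (37 cultivars). The rule used these libraries, so the direction was nearly fixed by the choice: all 100 genes had a mean change below 0 within each number. The median gene was lower in 29, 34 and 33.5 cultivars respectively. The drought libraries numbered 3 were shallower, with a median of 6670988 reads against 21800628 for those numbered 1, and the part of depth in these differences was not tested. Over the drought libraries used by the rule, the level of the set relative to the cultivar's control mean and the log10 of the reads had a Pearson r of 0.10 and a Spearman rho of 0.16, given as a description over libraries of 39 cultivars.

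Most of the 100 genes, like most genes tested, differed between cultivars in control leaves. In edgeR 93 of the 100 differed among the 39 cultivars at an adjusted p under 0.05, where 97.1% of the tested genes and 97.9% of those of at least 5 CPM did. The ratio of the highest to the lowest cultivar mean, on the log2(CPM + 1) scale turned back into a ratio, had a median of 2.10 among the 100 and 2.37 among the genes of at least 5 CPM. It ran from 1.301 in LOC_Os11g43970 on chromosome 11 to 23.8 in LOC_Os01g31870 on chromosome 1, both named after their values were seen. LOC_Os11g43970 stood at 182 to 296 CPM in the control libraries with a median of 247, and at 153 to 287 CPM in drought with a median of 222. LOC_Os01g31870 stood at 7.17 CPM in the lowest control library, of WRC44, and at 284 CPM in the highest, of WRC57, with a median of 60.1. In drought its median was 23.4 CPM, and it was lower in 38 of the 39 cultivars. Its change ran from -2.27 in WRC24 to 0.20 in WRC51. Whether unevenness in control and in the change go together over the 100 genes was not tested.

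The 100 genes also moved together from library to library within a group. For each gene the mean of its cultivar and treatment was subtracted, and the remainders were correlated between genes. The median correlation between 2 of the 100 genes was 0.37 over the control libraries, with 94.1% of the pairs above 0, and 0.36 over the drought libraries, with 90.4% above 0. Among 2000 genes spread over those of at least 5 CPM it was below 0.01 in both treatments, and among the 100 raised genes it was 0.16 in control and 0.24 in drought. The lowered and the raised genes were each chosen for a single direction of change, whereas the 2000 genes were not. The part of that choice in these correlations was not tested. With the mean of each replicate number subtracted as well, the median among the 100 lowered genes was 0.35 and 0.32. The sets also differed in abundance, with a median of 74.1 CPM for the lowered and 24.5 CPM for the raised genes. It was 24.7 CPM for all genes of at least 5 CPM. The part of abundance in these correlations was not tested. The correlations are descriptions: the points share their library and its scaling, and the mean remainder of the set had a correlation of 0.07 in control and 0.11 in drought with the log10 of the reads. Between cultivars, the changes of 2 of the 100 genes had a median correlation of 0.31 (n = 39 cultivars), against 0.00 among the 2000 genes. The rule used these changes and took lowered genes only, whereas the 2000 genes were not chosen by direction. How much of the difference comes from that choice was not tested, and the value among the raised genes is not given here. Nothing is therefore read from this comparison.

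The genes lay on all 12 chromosomes, in numbers from 3 on chromosome 12 to 15 on chromosome 1. Chromosomes 10 and 7 held the largest share relative to their genes of at least 5 CPM, with 1.19% (9 of 756) and 1.00% (11 of 1098). Chromosome 4 held the smallest, with 0.318% (4 of 1257). Over all chromosomes the list held 100 of 14568 such genes, and whether any chromosome departed from that share was not tested. Among the 100 were 4 pairs of genes with no other gene of at least 5 CPM between them, named here after their values were seen. The pair LOC_Os07g45070 and LOC_Os07g45074 on chromosome 7 had mean changes of -0.41 and -0.51. On the same chromosome LOC_Os07g40510 and LOC_Os07g40520 had -0.39 and -0.61. The pair LOC_Os10g31856 and LOC_Os10g31864 on chromosome 10 had -0.36 and -0.56, and LOC_Os02g27110 and LOC_Os02g27130 on chromosome 2 had -0.28 and -0.45. The changes of the 2 genes of a pair correlated at 0.65 to 0.88 over the 39 cultivars. The strand setting of the counting is not given in the sources used here, nor are positions, so reads shared between overlapping or near-identical neighbours cannot be told apart from separate changes.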

How the data were processed

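The authors deposited unnormalized read counts for each gene model in 1 table. STAR, featureCounts 2.0.0 and the genome build IRGSP-1.0 are named in the submitters' processing notes. Annotation release, strand setting and the treatment of reads with several positions are not given in the sources used here. Its 239 columns were matched to samples through the library names in the labels. Libraries of at least 1000000 reads (235) were filtered with filterByExpr (minimum count 10) and scaled by TMM in edgeR 4.0.16 under R 4.3.3. Tests were edgeR's glmQLFit and glmQLFTest with Benjamini-Hochberg adjustment over all 28266 genes and a threshold of 0.05, with DESeq2 1.42.0 as an alternative. Drought was tested with cultivar as a term, and single cultivars, WRC09 among them, from a model that gave each cultivar its own control and drought mean. The functions were tested on simulated data. P-values measure the spread between libraries, which may be technical.

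The members and lists were chosen with earlier results of these data known. The rule for names took the first gene of the list and the one with the most negative mean change, because 0 identifiers matched the reference; other genes are said to be named after their values were seen. Pathway lists, leaf markers and promoter motifs could not be applied for that reason. Alternatives covered scaling, filters, pseudocount, tool, cultivars, libraries and replicates. Library sizes are given above; intervals on counts cover counting error only.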

Additional observations from a re-analysis of the deposited data

Results flagged for a closer look

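The drought responses of the cultivars differed for 2 of the 100 genes in edgeR's test of the cultivar by drought interaction over 39 cultivars, at an adjusted p under 0.05, a share close to the 2.11% of all tested genes and the 1.56% of those of at least 5 CPM that passed. LOC_Os03g60840 on chromosome 3 had an adjusted p of 0.023. Its mean was 21.8 CPM in control and 7.34 CPM in drought, and its change ran from -3.82 in WRC24 to 0.27 in WRC44, with 37 cultivars lower. LOC_Os01g49890 on chromosome 1 had an adjusted p of 0.048. Its mean was 146 CPM in control and 83.8 CPM in drought, and its change ran from -2.17 in WRC24 to 0.25 in WRC44, with 38 cultivars lower. The spread between cultivars was part of the rule that chose the genes. No group had 4 or more libraries, so single libraries were not tested as outliers.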

How the results depend on the processing

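The list itself depended most on the libraries. With all libraries whatever their depth, the list chosen again shared 26 genes with the 100 and had a median change of -0.88, and without one replicate number it shared 61 to 67. The setting with all libraries took in WRC47 drought replicate 3, with 362 reads. In that library 97.5% of the genes of at least 5 CPM lay below the control mean. The part of that library in the change of the list was not tested. Other choices of pseudocount, minimum CPM, scaling, cultivars or of libraries near another cultivar kept 80 to 100 genes. The counts of genes called over the cultivars were about 1.1e2 lower and 74 higher among genes with a mean of at least 1 CPM, where fewer genes were tested, and 251 to 380 lower and 205 to 242 higher without one replicate number. With replicate number as a block they were 243 and 160, and 9 of the 100 genes were called with the fold minimum. In WRC09 the 50 members were 49 with RLE size factors, 36 with its 6 libraries alone in edgeR, 51 in DESeq2 and 42 with the replicate block. Without one WRC09 replicate number they were 22 to 36 (genes lower 1178 to 1927, which is 4.17 to 6.82% of those tested). Members past the fold minimum were then 10 to 22, and 89 to 98 members lay below 0. For the other WRC09 counts the share of all tested genes under the same setting is not given here. The cause of these differences was not tested. In control leaves 99 members (27568 of 28266 tested genes) differed between cultivars with the replicate block, and 75 to 91 (24926 to 25502 genes) without one replicate number. Same-numbered control and drought libraries of a cultivar had a median r of 0.15 between their deviations (-0.78 to 0.59), against -0.04 for different numbers. An r over 0.1 was found in 61 same-numbered pairs (of 37, 38 and 37 for the numbers 1, 2 and 3) and in 65 of 224 pairs of different numbers. The numbers were not taken as pairs, because not every pair had an r over 0.1 and the labels do not say what a number stands for. In both series, however, the library names run in blocks by replicate number, with the cultivars in the same order. What the libraries of a block share was not tested. The main fits thus leave out any effect shared by a number, and results with the replicate block are given above. Leaving out 1 library of a cultivar, tried after the data were seen, turned the level change of the set in WRC44 to 0.15 (without drought replicate 2; -0.21 without replicate 1) and moved it by over 1.5 times in 9 cultivars. These were WRC02 (-0.11 to -0.39), WRC06 (-0.20), WRC100 (-0.18), WRC32 (-0.22), WRC44, WRC46 (-0.19 to -0.51), WRC51 (-0.02 to -0.18), WRC55 (-0.20) and WRC57 (-0.12 to -0.48). Settings for pathway lists were not run, since 0 identifiers matched the reference.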
